A study of Mus musculus with 25 samples.

Results

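The voltage-gated calcium, sodium and HCN channel genes were taken by symbol from the gene lists of both expression tables: Cacna, Cacnb and Cacng genes, Scn genes ending in a or b, HCN genes and Nalcn. Of the 15768 genes in either table, 38 are described here. Of these, 36 were among the 15315 genes of the long-term experiment and 35 among the 14007 genes of the short-term experiment, with 33 in both. Cacna1f, Cacna1s and Cacna2d4 were listed in the long-term experiment only, and Cacna1e and Scn11a in the short-term experiment only. By role the 38 genes are 10 pore-forming calcium channel subunits, 4 alpha2delta, 4 beta and 6 gamma subunits of calcium channels, 7 pore-forming sodium channel subunits, 3 sodium channel beta subunits, 3 HCN channels and Nalcn.

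The data are bulk RNA-seq of whole pituitaries or pituitary tumors of shRb mice. All mice carried the reverse tetracycline transactivator rtTA at Rosa26 and 1 shRNA against Rb at Col1a1 (shRb5-4, from 1 embryonic stem cell clone), so that doxycycline (dox) in the drinking water lowers Rb1 and turns on a linked GFP. The study saw GFP in multiple tissues, but only weakly in lungs and brain. In the long-term experiment, with poly(A)-selected libraries, 3 females had 6 weeks of dox (6w+dox), 2 females and 2 males had 12 weeks of dox (12w+dox), and 3 females and 2 males had 6 weeks of dox and then 6 weeks without it (12w-res). In the short-term experiment, with rRNA-depleted libraries, mice had 16 weeks of dox (16w +dox, 3 males) or the same followed by 1 day (1d -dox, 4 females), 3 days (3d -dox, 3 males) or 5 days (5d -dox, 3 females) without dox. At 1d and 5d, sex and time off dox cannot be told apart, and the 6w+dox mice were all female. No mouse without dox was analysed here.

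Endocrine cells of the pituitary, the melanotrophs of the intermediate lobe among them, fire spontaneous action potentials, and the calcium that enters through voltage-gated calcium channels sets off hormone release. The pore-forming subunit decides the class of a calcium or sodium channel, and the auxiliary subunits adjust its number at the membrane, its gating and its place in the cell. HCN channels open on hyperpolarization, bind cyclic nucleotides and carry a pacemaker current, and Nalcn carries a steady sodium leak that keeps the resting potential near the firing range.

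Values are FPM, the reads of a gene scaled by size factors to 1 library size shared by the mice of an experiment. Each library held 19066053 to 28968476 reads on genes in the long-term experiment and 9573101 to 13036900 in the short-term experiment, and the 2 experiments are not on one scale. Rb1 and GFP followed the labels: Rb1 was at 1.86 to 5.09 FPM in the 7 long-term mice on dox and at 16.1 to 20.3 FPM in the 5 12w-res mice, while GFP in the short-term mice went from 1025 to 1360 FPM at 16w +dox to 9.34 to 15.2 FPM at 5d -dox. Rb1 in the short-term mice was at 3.47 to 6.03 FPM, with a log2 difference of 0.27 at 5d (limma adjusted p = 0.525). Pomc, the hormone gene of melanotrophs, took 13.6 to 32.2% of the reads at 6w+dox, 12.9 to 23.0% at 12w+dox and 39.1 to 43.2% in 12w-res. In bulk RNA, fewer cells of a type and less RNA per cell cannot be told apart.

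Of the 38 genes, 30 had at least 1 of 40 promoter windows (250 bases before to 50 after the start) in the RefSeq table of GRCm38.p6. Scn2b and Scn4b, a pair of sodium channel beta subunit genes on the plus strand of chromosome 9, are neighbours with 8553 bases between them, and they were called in different long-term comparisons. Their windows are shown with that of Hcn4, the gene with the smallest adjusted p of the set at 5d -dox, to show how unlike the sequences at their starts are. They are Scn2b at chr9:45117626-45117925, Scn4b at chr9:45138374-45138673 and Hcn4 at chr9:58822699-58822998, all on the plus strand, with each CG dinucleotide in capitals.
Scn2b: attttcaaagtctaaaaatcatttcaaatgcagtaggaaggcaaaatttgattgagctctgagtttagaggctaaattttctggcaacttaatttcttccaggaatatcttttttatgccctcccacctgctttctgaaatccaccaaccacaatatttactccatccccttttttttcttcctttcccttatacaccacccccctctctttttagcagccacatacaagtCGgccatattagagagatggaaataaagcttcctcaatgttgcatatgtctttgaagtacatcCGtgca
Scn4b: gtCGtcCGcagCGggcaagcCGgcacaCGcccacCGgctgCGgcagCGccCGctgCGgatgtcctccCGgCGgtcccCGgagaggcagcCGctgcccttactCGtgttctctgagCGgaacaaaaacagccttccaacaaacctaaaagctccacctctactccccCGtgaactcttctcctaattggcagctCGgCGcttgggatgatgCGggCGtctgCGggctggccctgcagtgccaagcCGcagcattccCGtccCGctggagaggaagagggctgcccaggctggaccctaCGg
Hcn4: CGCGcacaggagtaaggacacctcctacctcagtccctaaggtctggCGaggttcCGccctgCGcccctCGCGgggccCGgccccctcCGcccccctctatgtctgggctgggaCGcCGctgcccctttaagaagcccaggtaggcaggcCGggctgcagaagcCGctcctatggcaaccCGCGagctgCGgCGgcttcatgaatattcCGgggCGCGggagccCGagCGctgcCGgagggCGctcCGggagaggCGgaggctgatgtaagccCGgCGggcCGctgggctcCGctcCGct
The Scn2b window held 2 CG dinucleotides and had a GC content of 38.3%, against 26 and 66.3% for Scn4b and 31 and 71.7% for Hcn4. The median over the 40 windows of channel genes was 61.5%, against 52.7% over 32851 windows of all genes. Words bound by factors of the Rb pathway (E2F and CHR) and of cyclic AMP signaling (CRE) were searched on both strands: the E2F words TTTCCCGC, TTTGGCGC, TTTGGCGG and TTTCGCGC, of which the middle pair overlap in all but the last letter, the CHR word TTTGAA, and the CRE word TGACGTCA. None of the 40 windows held an E2F or a CRE word, which 2.37% and 1.79% of all windows held. A CHR word lay in 5 of the 40 (12.5%, against 17.9% of all windows), those of Cacna1i, Cacnb2, Cacng6, Scn1a and Scn2b. The Scn2b window held it 3 times.

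Between genes, levels are compared as FPM per kb of the longest annotated transcript. In the long-term experiment the 6 highest means over 12 mice were those of Cacnb3 (49.0 FPM per kb), Cacna2d1 (42.3), Hcn2 (18.7), Cacng7 (14.3), Nalcn (12.6) and Cacna1a (10.2). In the short-term experiment they were Cacna2d1 (17.9 FPM per kb), Cacnb3 (13.9), Cacna1a (8.06), Cacna1d (6.92), Nalcn (6.13) and Hcn2 (5.38). The order of Cacnb3 and Cacna2d1 was not the same in all groups: at 12w+dox they stood at 57.3 ± 6.65 and 41.4 ± 3.25 FPM per kb (SD, n = 4), and in 12w-res at 41.1 ± 2.57 and 48.1 ± 3.65 (SD, n = 5). At 6w+dox, Cacnb3 at 51.3 ± 8.32 lay above Cacna2d1 at 34.1 ± 4.38 (SD, n = 3). Cacnb3, Cacna2d1, Hcn2, Nalcn and Cacna1a were thus among the 6 highest in both experiments.

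Across the long-term experiment 11 of the 36 channel genes were called in at least 1 of the 3 comparisons, where called means an adjusted p under 0.05 by limma over all genes and a log2 fold change beyond 1 in size. Of all 15315 genes, 19.9% were called in at least 1. From 6w+dox to 12w+dox, 3 channel genes rose (Cacna1a, Cacna2d3 and Scn4b) and 3 fell (Cacna1h, Cacng5 and Scn7a). Of all genes, 3.15% were called higher and 4.04% lower. At any fold, 10 channel genes had an adjusted p under 0.05, against 22.4% of all genes, and the groups did not overlap for 9, against 25.2%. The median log2 difference was 0.36 over the 36 genes and -0.01 over all genes.

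In 12w-res against 12w+dox, 4 channel genes rose (Cacna1g, Scn2b, Scn4a and Hcn4) and Cacng4 fell, beside 6.24% of all genes called higher and 5.04% lower. Scaling by total reads gave 0 higher and 11 lower, and scaling by totals without Pomc gave 2 and 3. Any fold allowed, 12 channel genes had an adjusted p under 0.05 (all genes 37.8%), and 11 did not overlap between the groups (all genes 34.5%). Here the median log2 difference was -0.15 over the channel genes and -0.0040 over all genes.

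In 12w-res against 6w+dox, Hcn4, Scn2b and Scn4a rose and Cacna1h, Cacng5 and Scn7a fell, while 5.81% of all genes were called higher and 5.82% lower. An adjusted p under 0.05 at any fold was found for 16 channel genes, 10 of them higher (all genes 33.8%), and 9 did not overlap (all genes 32.7%). The median log2 difference was 0.26 over the channel genes and -0.02 over all genes. These 3 comparisons share mice with one another.

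**Figure D1:**
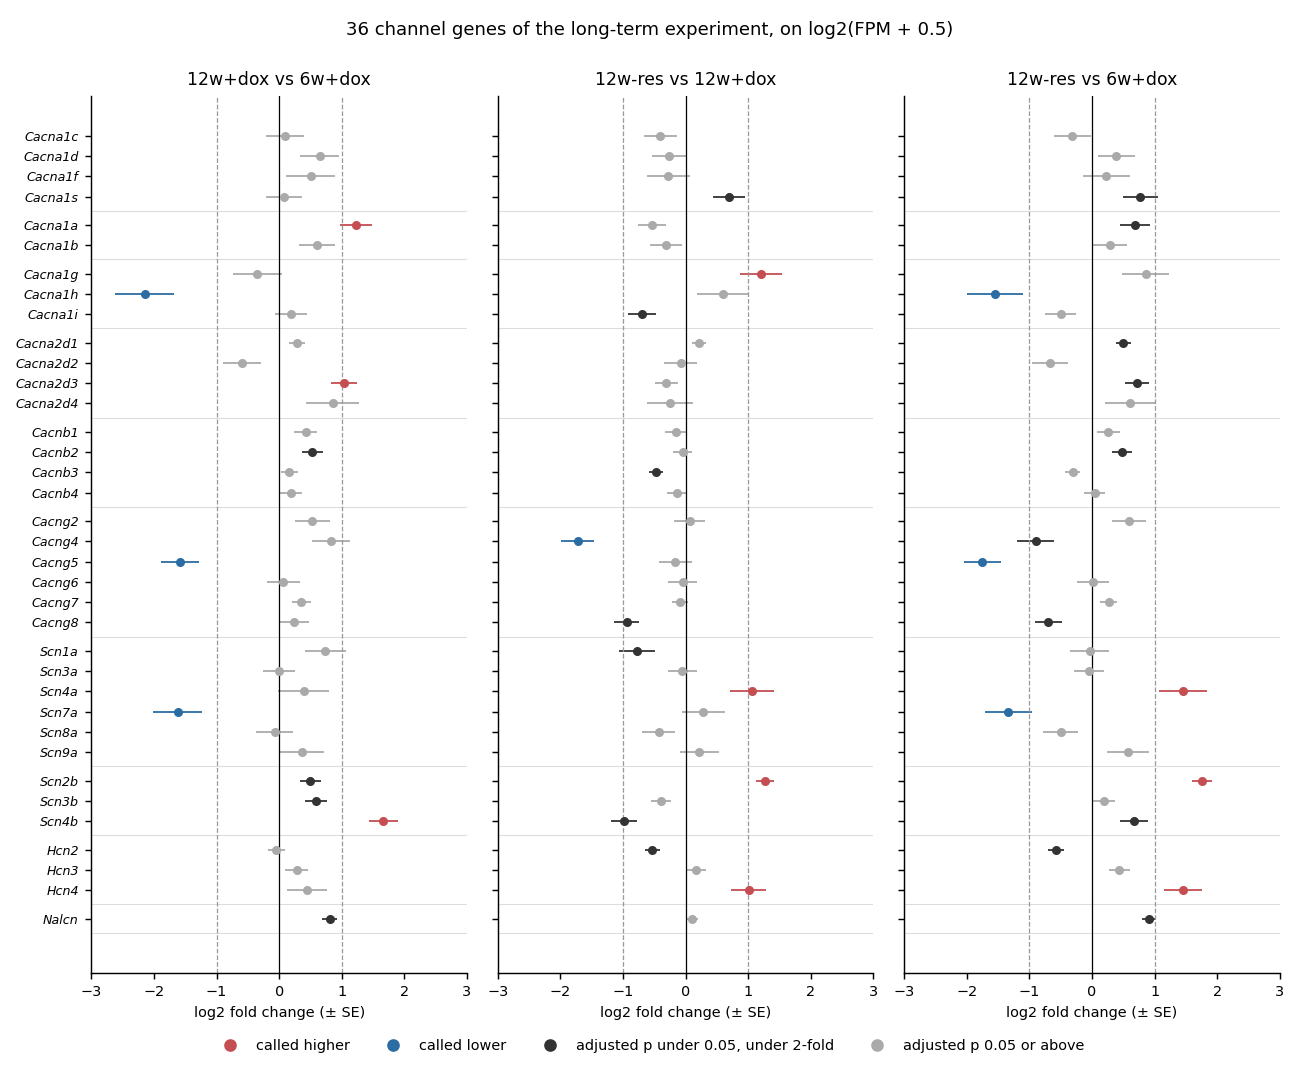
Log2 fold change (x axis, on log2(FPM + 0.5), bars are standard errors) of the 36 channel genes in the 3 long-term comparisons, grouped by role from L-type pore subunits at the top to Nalcn at the bottom. Dashed lines mark a change of 1 on the log2 scale. Red points are the genes called higher (3, 4 and 3 from left to right), blue those called lower (3, 1 and 3), black those with an adjusted p under 0.05 at a smaller change, and grey the rest.

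Of the pore-forming calcium channel genes, the P/Q-type gene Cacna1a couples calcium entry to secretion in nerve terminals and endocrine cells. Cacna1a was higher at 12w+dox than at 6w+dox. It stood at 36.2, 44.2 and 61.2 FPM in the 6w+dox mice, at 120, 124, 75.0 and 124 FPM at 12w+dox, and at 48.2, 102, 65.2, 80.6 and 88.5 FPM in 12w-res. All 12w+dox mice lay above all 6w+dox mice, and the 12w-res mice spread from the 6w+dox range to the lower end of 12w+dox. From 6w+dox to 12w+dox the log2 fold change was 1.23 ± 0.25 (SE, limma adjusted p = 0.00479), and the difference of 12w-res from 12w+dox was -0.54 ± 0.22 (adjusted p = 0.0672). Against 6w+dox, 12w-res was 0.69 ± 0.24 higher (adjusted p = 0.0394), with overlap and below the fold minimum. Cacna1b, the N-type pore, was at 11.1 to 37.6 FPM over the 12 mice and passed the test in no comparison.

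The 3 T-type genes, whose channels open near the resting potential, each had a pattern of its own. Cacna1h was at 2.74, 7.75 and 10.7 FPM at 6w+dox, at 1.5, 0.379, 0.862 and 1.65 FPM at 12w+dox, and at 2.65, 2.22, 0.865, 0.886 and 3.26 FPM in 12w-res. It fell by 2.15 ± 0.47 on the log2 scale from 6w+dox to 12w+dox (SE, limma adjusted p = 0.00648) and was 1.56 ± 0.45 lower on that scale in 12w-res than at 6w+dox (adjusted p = 0.0159). The 6w+dox and 12w+dox mice did not overlap, whereas the lowest 6w+dox mouse lay within the 12w-res range. The second call was lost without 6w+dox replicate 2 (-1.41, adjusted p = 0.0695) or replicate 3 (-1.18, adjusted p = 0.068), and the first in females alone (-2.34, adjusted p = 0.0542). From 12w+dox to 12w-res the difference was 0.60 ± 0.41 (adjusted p = 0.271). Its exons share 158 bases with Tpsg1 on the opposite strand, and whether the reads were counted by strand is not given in the sources used here.

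Cacna1g was at 1.40, 1.34 and 3.68 FPM at 6w+dox, 1.67, 1.02, 0.770 and 2.74 FPM at 12w+dox, and 4.0, 2.96, 2.91, 3.48 and 7.46 FPM in 12w-res. Every 12w-res mouse lay above every 12w+dox mouse, with a log2 fold change of 1.20 ± 0.34 (SE, limma adjusted p = 0.0127). Without 12w-res replicate 5 it was 0.99 (adjusted p = 0.0319), just under the fold minimum. The call was also lost under 4 of 14 other alternatives. These were scaling by totals (0.67, adjusted p = 0.141), females alone (1.39, adjusted p = 0.0711), males alone (0.96, adjusted p = 0.165) and a replicate block (0.99, adjusted p = 0.0422). Against 6w+dox the differences were -0.35 ± 0.39 at 12w+dox (adjusted p = 0.547) and 0.86 ± 0.37 in 12w-res (adjusted p = 0.0889). Cacna1i, the most abundant of the 3 per kb, was at 16.7 to 62.7 FPM and was 0.69 ± 0.23 lower on the log2 scale in 12w-res than at 12w+dox (adjusted p = 0.0264), with no overlap between these groups. Per kb, the 3 T-type genes made up 19.2 to 24.5% of the calcium channel pore signal at 6w+dox, 9.83 to 17.5% at 12w+dox and 10.2 to 17.5% in 12w-res, so that the 6w+dox mice did not overlap with the others.

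L-type genes, whose channels carry long-lasting calcium currents, gave no called change. Cacna1d, the main one per kb, was at 29.1 to 113 FPM and Cacna1c at 8.69 to 25.9 FPM, with a wide spread at 6w+dox (29.1, 48.5 and 102 FPM for Cacna1d). Cacna1d shares 589 exon bases with Chdh on the opposite strand. Cacna1f, known from the retina, was at 0.0582 to 1.74 FPM. Cacna1s, the skeletal muscle L-type pore, was at 0 to 0.207 FPM at 6w+dox, 0.105 to 0.233 FPM at 12w+dox and 0.166 to 1.22 FPM in 12w-res. It differed between 12w-res and 12w+dox by 0.69 ± 0.25 on the log2 scale (limma adjusted p = 0.043), and the count test DESeq2 on recovered reads gave 1.96 (adjusted p = 0.0193). The groups overlapped in 1 mouse, 12w-res replicate 5. Of 6 skeletal muscle markers 3 were in the table (Ckm, Myh1 and Tnnt3 were not). Their sums overlapped between the groups, at 8.98 to 14.3 FPM at 6w+dox, 3.79 to 10.5 FPM at 12w+dox and 6.85 to 13.5 FPM in 12w-res. Between 12w+dox and 12w-res, Myh4, most of each sum, overlapped. Acta1 (0.308 to 0.419 and 0.501 to 1.59 FPM) and Myl1 (0.0279 to 0.314 and 0.528 to 2.05 FPM) were higher in 12w-res without overlap. At 6w+dox Acta1 was at 1.32 to 2.39 FPM and Myl1 at 0.0828 to 0.49 FPM. The part of these markers in the values of Cacna1s and Scn4a was not tested.

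**Figure D2:**
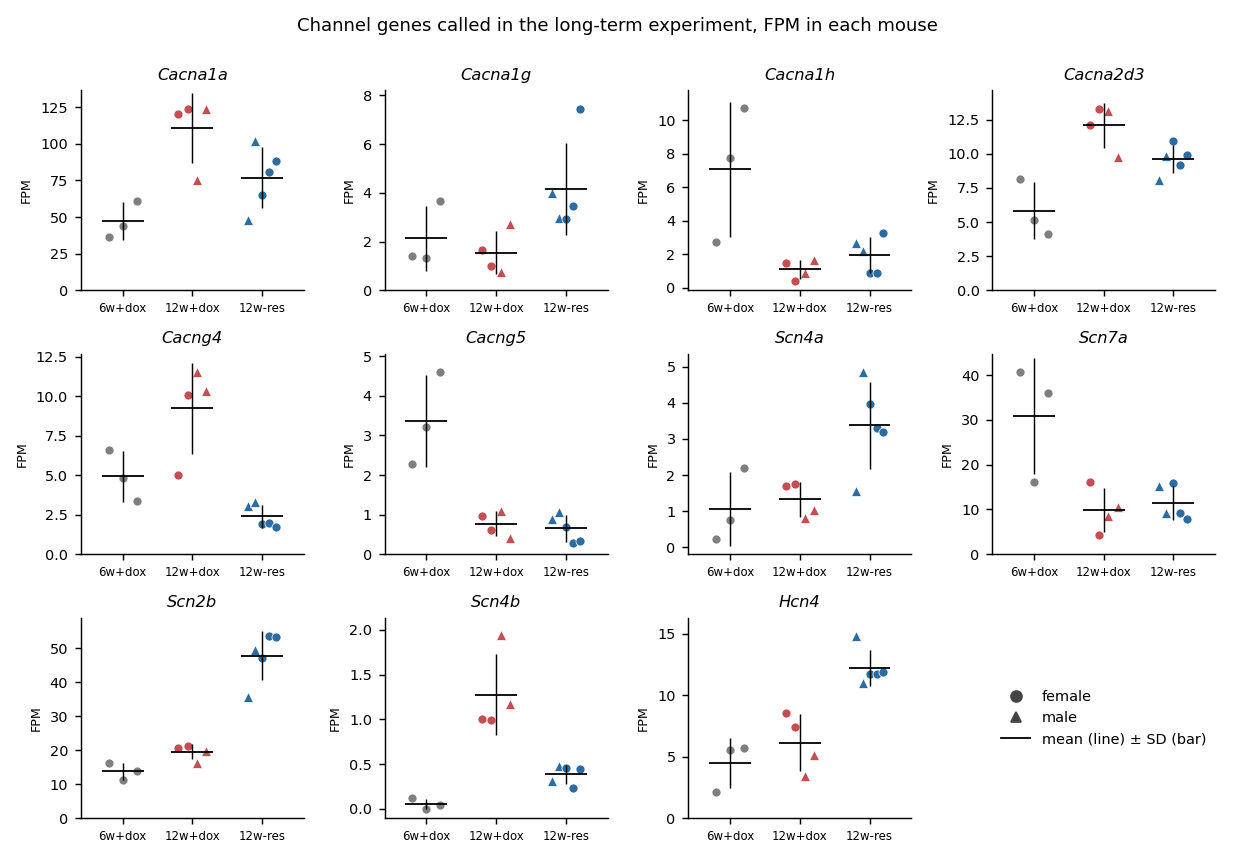
FPM (y axis, linear, 1 scale per gene) of the 11 called channel genes in each of the 12 long-term mice, with females as circles and males as triangles, lines at the mean and bars of 1 SD. Scn2b in 12w-res lies above all mice on dox, Scn4b at 12w+dox lies above all other mice, and Cacng5 at 6w+dox lies above all others.

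Among the auxiliary calcium channel genes, Cacnb3 and Cacna2d1 changed by less than the fold minimum. Cacnb3, a cytoplasmic beta subunit, was at 115 to 159 FPM at 6w+dox, 135 to 176 FPM at 12w+dox and 104 to 122 FPM in 12w-res, and was 0.47 ± 0.11 lower on the log2 scale in 12w-res than at 12w+dox (limma adjusted p = 0.00501). Cacna2d1, the main alpha2delta subunit, an extracellular protein that raises channel number at the surface, was at 232 to 291 FPM at 6w+dox and 322 to 387 FPM in 12w-res (0.50 ± 0.12 on the log2 scale, adjusted p = 0.00495). In both differences the groups named did not overlap. Cacnb2 was at 15.6, 22.9 and 30.7 FPM at 6w+dox and 31.4 to 33.1 FPM at 12w+dox (0.53 ± 0.17 on the log2 scale, adjusted p = 0.0363). Cacnb1 at 11.9 to 22.5 FPM, Cacnb4 at 7.71 to 11.2 FPM, Cacna2d2 at 12.3 to 33.6 FPM and Cacna2d4 at 0 to 1.88 FPM passed the test in no comparison.

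Cacna2d3, a less abundant alpha2delta subunit, was at 8.15, 5.17 and 4.14 FPM at 6w+dox, at 12.1, 13.3, 13.1 and 9.75 FPM at 12w+dox, and at 8.11, 9.83, 10.9, 9.21 and 9.89 FPM in 12w-res. The 12w+dox mice all lay above the 6w+dox mice, and its log2 fold change of 1.03 ± 0.21 (SE, limma adjusted p = 0.00433) was just above the fold minimum. It fell under that minimum without 12w+dox replicate 2 or 3 or 6w+dox replicate 2 or 3 (0.83 to 0.99, adjusted p = 0.00776 to 0.0252). The 12w-res mice differed from 6w+dox by 0.72 ± 0.20 (adjusted p = 0.0123) and from 12w+dox by -0.31 ± 0.18 (adjusted p = 0.193), with overlap in both.

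The gamma genes include the TARPs, which are better known as partners of AMPA glutamate receptors than of calcium channels, and 2 of them changed in opposite comparisons. Cacng4 was at 6.58, 4.85 and 3.35 FPM at 6w+dox, 5.02, 10.1, 11.5 and 10.3 FPM at 12w+dox, and 3.07, 3.33, 1.91, 1.95 and 1.71 FPM in 12w-res. Every 12w-res mouse was below every mouse on dox, and Cacng4 fell by 1.73 ± 0.27 on the log2 scale from 12w+dox to 12w-res (SE, limma adjusted p = 0.000223), a call that held under every alternative tried. Against 6w+dox it was 0.90 ± 0.29 lower in 12w-res on that scale (adjusted p = 0.0278), below the fold minimum, and from 6w+dox to 12w+dox the difference was 0.83 ± 0.30 (adjusted p = 0.0645). Cacng8, another TARP, had values of 3.63 to 4.20 FPM at 12w+dox and 1.27 to 2.86 FPM in 12w-res, without overlap and 0.94 ± 0.20 lower on the log2 scale (adjusted p = 0.00213).

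Cacng5, which lies 79.9 kb from Cacng4 on chromosome 11, was at 2.27, 3.21 and 4.59 FPM at 6w+dox, 0.977, 0.612, 1.08 and 0.419 FPM at 12w+dox, and 0.884, 1.06, 0.683, 0.295 and 0.332 FPM in 12w-res. It fell by 1.59 ± 0.31 on the log2 scale to 12w+dox (SE, limma adjusted p = 0.00336) and by 1.75 ± 0.29 to 12w-res (adjusted p = 0.000463), and both calls held under every alternative that could be fitted. All 6w+dox mice lay above all others, and between 12w-res and 12w+dox the log2 difference was -0.16 ± 0.27 (adjusted p = 0.663). The remaining gamma genes passed the test in no comparison: Cacng7, at 23.0 to 36.2 FPM, Cacng6, at 7.85 to 17.3 FPM, and Cacng2, at 2.68 to 8.01 FPM.

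Pore-forming sodium channel subunits carry the upstroke of the action potential. Of the 6 such genes described in these mice, Scn7a and Scn3a led per kb at 6w+dox, with means of 38.8% and 37.7% of the sum over the 6. Scn3a made up a mean of 50.5% of that sum at 12w+dox and then 48.9% at 12w-res. Scn3a was at 25.8 to 61.0 FPM and Scn8a at 10.1 to 37.0 FPM, both neuronal channels and neither past the test in any comparison. The same held for Scn9a, known from sensory neurons, at 1.25 to 6.00 FPM. Scn1a, at 1.03 to 1.49 FPM at 12w+dox and 0.221 to 0.819 FPM in 12w-res, was 0.77 ± 0.29 lower on the log2 scale in 12w-res (limma adjusted p = 0.0472). Scn2a1, also a pore-forming sodium channel gene, did not match the rule that defined the set and was counted with the partner genes. It was at means of 19.6 FPM at 6w+dox, 25.2 FPM at 12w+dox and 31.9 FPM in 12w-res. The shares above leave it out.

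Scn7a encodes a sodium-sensing channel known from glia and the neural lobe rather than a classical action potential channel. It was at 40.6, 16.2 and 36.0 FPM at 6w+dox, 16.2, 4.40, 8.50 and 10.6 FPM at 12w+dox, and 15.3, 9.30, 16.0, 9.15 and 7.90 FPM in 12w-res. The 6w+dox mouse at 16.2 FPM met the highest 12w+dox mouse. Scn7a fell by 1.62 ± 0.39 on the log2 scale to 12w+dox (SE, limma adjusted p = 0.011) and by 1.34 ± 0.38 to 12w-res (adjusted p = 0.014). Without 6w+dox replicate 1 neither passed (adjusted p = 0.0518 and 0.0684). In females alone neither passed (-1.69 and -1.41, adjusted p = 0.0881 and 0.0549). Between the 12-week groups the difference was 0.28 ± 0.35 (adjusted p = 0.545). The neural lobe list of 8 markers, all in the table and none at 3 reads or fewer in every mouse, holds Avp and Oxt, hormone genes of the neurons that end there, and 6 glia genes. The list summed to 51.4 to 131 FPM at 6w+dox, 11.5 to 18 FPM at 12w+dox and 12.9 to 24.7 FPM in 12w-res, and Avp alone was at 28.0 to 83.1, 1.31 to 3.11 and 0.845 to 2.6 FPM. The 6 glia genes summed to 28.1, 19.0 and 30.6 FPM in the 6w+dox mice, to 9.79 to 14.1 FPM at 12w+dox and to 11.9 to 22.4 FPM in 12w-res. The 12w-res range of that sum overlapped with 6w+dox, and the glia markers Aqp4 and S100b overlapped between all 3 groups. The part of these markers in the values of Scn7a was not tested.

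Scn4a, the skeletal muscle pore, was at 0.233, 0.757 and 2.19 FPM at 6w+dox, 1.71, 1.75, 0.801 and 1.03 FPM at 12w+dox, and 1.56, 4.86, 3.96, 3.31 and 3.20 FPM in 12w-res. Only 12w-res replicate 1 lay among the mice on dox, and the other 4 lay above them. It rose by 1.06 ± 0.36 on the log2 scale against 12w+dox (SE, limma adjusted p = 0.0305) and by 1.45 ± 0.39 against 6w+dox (adjusted p = 0.0107), while 12w+dox differed from 6w+dox by 0.39 ± 0.41 (adjusted p = 0.518). The first call was lost without any of 6 mice taken out in turn (12w+dox replicate 3 or 4, 12w-res replicate 2, 3, 4 or 5), with values of 0.91 to 1.06 and adjusted p of 0.0525 to 0.091, and the second without 6w+dox replicate 1 (1.01, adjusted p = 0.0639). The first was also lost under 7 of 13 other alternatives. Among them were scaling by totals (0.55, adjusted p = 0.23), females alone (0.84, adjusted p = 0.254) and males alone (1.23, adjusted p = 0.0882).

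The sodium channel beta genes encode single-pass adhesion proteins that speed and place the pore. In each long-term comparison 1 of them held the smallest adjusted p of the channel genes, Scn4b from 6w+dox to 12w+dox and Scn2b in both comparisons of 12w-res. All 3 had an adjusted p under 0.05 at some fold from 6w+dox to 12w+dox, where 22.4% of all genes did. In 12w-res, Scn2b and Scn4b did so against 12w+dox (all genes 37.8%) and against 6w+dox (all genes 33.8%). From 12w+dox to 12w-res, Scn2b rose and Scn4b fell.

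Scn2b was at 16.2, 11.1 and 13.9 FPM at 6w+dox, 20.7, 21.2, 16.3 and 19.8 FPM at 12w+dox, and 35.6, 49.5, 47.2, 53.5 and 53.3 FPM in 12w-res. No pair of groups overlapped, and the order was 6w+dox, 12w+dox, 12w-res. The log2 fold changes were 0.50 ± 0.17 from 6w+dox to 12w+dox (SE, limma adjusted p = 0.0471), 1.27 ± 0.15 from 12w+dox to 12w-res (adjusted p = 2.07e-05) and 1.76 ± 0.16 from 6w+dox to 12w-res (adjusted p = 2.34e-06). When libraries were scaled by total reads, the rise of Scn2b from 12w+dox to 12w-res was 0.62 (adjusted p = 0.00394), below the fold minimum, while the median of all genes moved to -0.61.

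Scn4b was nearly silent at 6w+dox, with 2, 0 and 1 reads, which is 0.116, 0 and 0.0414 FPM. It was at 1.01, 0.991, 1.94 and 1.17 FPM at 12w+dox (29 to 63 reads) and at 0.312, 0.475, 0.455, 0.236 and 0.442 FPM in 12w-res (4 to 10 reads), and no pair of groups overlapped. Against the 3 reads of the 6w+dox mice, the ratio was 27.2 at 12w+dox (95% exact interval 9.15 to 133) and 8.27 in 12w-res (2.62 to 41.9), where the intervals cover counting error only. On the log2(FPM + 0.5) scale, which understates the change of low genes, the rise from 6w+dox to 12w+dox was 1.66 ± 0.23 (SE, limma adjusted p = 0.000521) and the difference of 12w-res from 12w+dox was -0.99 ± 0.20 (adjusted p = 0.00188), just short of the fold minimum. The count tests on recovered reads gave -1.73 with DESeq2 (adjusted p = 0.00167) and -1.71 with edgeR (adjusted p = 0.00688) for the latter. Against 6w+dox, 12w-res was 0.68 ± 0.22 higher on the log2(FPM + 0.5) scale (limma adjusted p = 0.0301). Scn3b was at 13.7 to 14.4 FPM at 6w+dox, 20.1 to 22.5 FPM at 12w+dox and 10.4 to 19.6 FPM in 12w-res. It was 0.59 ± 0.18 higher on the log2 scale at 12w+dox than at 6w+dox (adjusted p = 0.0334), and although 12w-res and 12w+dox did not overlap, their difference was not past the test.

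The makeup of Scn2b, Scn3b and Scn4b differed between 12w-res and the mice on dox. Per kb, Scn2b made up 41.9 to 50.1% of these 3 genes at 6w+dox, 37.6 to 46.6% at 12w+dox and 67.8 to 74.8% in 12w-res. Scn3b made up 49.6 to 58.1% and 51.4 to 58.2% in the groups on dox and 24.6 to 31.6% in 12w-res, so that for both genes the 12w-res mice lay apart from all mice on dox. Scn4b held at most 4.18% in any mouse. The shares are descriptive, and no test was run on them.

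**Figure D3:**
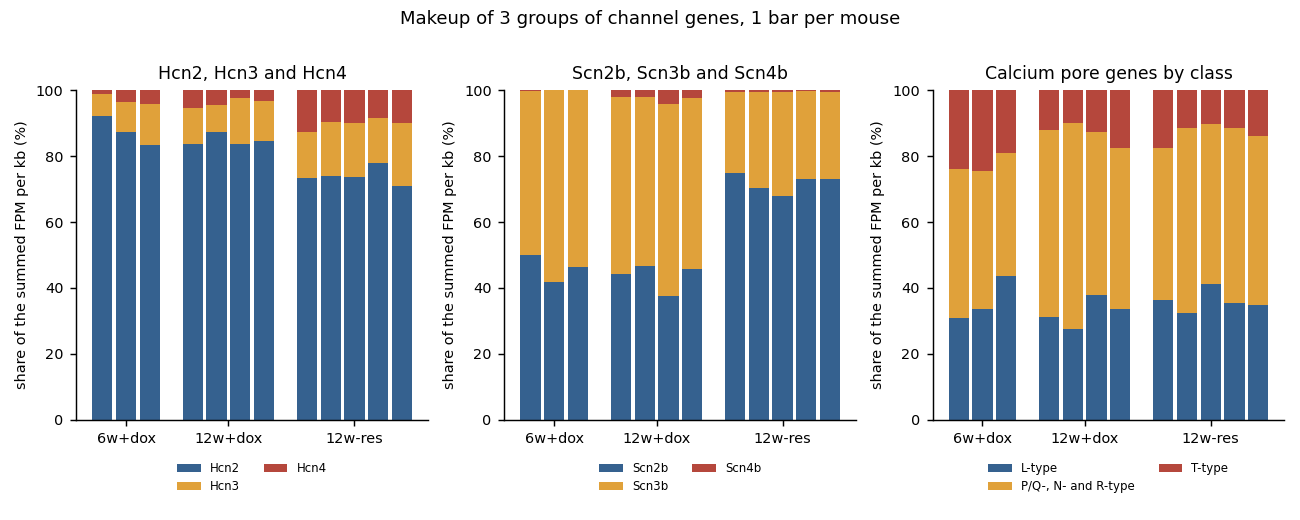
Share of each gene or class in the summed FPM per kb of its panel (y axis, percent), with 1 stacked bar per long-term mouse, for Hcn2 to Hcn4, for Scn2b to Scn4b and for the calcium channel pore genes by class (the P/Q-, N- and R-type class holds Cacna1a and Cacna1b here). Hcn4 took 1.21 to 5.59% of the bars on dox and 8.58 to 12.8% in 12w-res, and Scn2b was highest in 12w-res.

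Of the HCN genes, Hcn2 was the main one and Hcn4, the chief pacemaker gene of the sinoatrial node, the one that rose. Hcn4 was at 2.15, 5.57 and 5.71 FPM at 6w+dox, 8.55, 7.43, 3.42 and 5.17 FPM at 12w+dox, and 14.8, 11, 11.7, 11.7 and 11.9 FPM in 12w-res. Every 12w-res mouse lay above every mouse on dox. The log2 fold change was 1.45 ± 0.30 against 6w+dox (SE, limma adjusted p = 0.00222), which held under every alternative, and 1.01 ± 0.28 against 12w+dox (adjusted p = 0.0108), at the edge of the fold minimum. From 6w+dox to 12w+dox it was 0.44 ± 0.31 (adjusted p = 0.329). The difference from 12w+dox was 0.54 among females (adjusted p = 0.329), 0.39 with scaling by totals (adjusted p = 0.288), and 0.78 to 0.95 without 12w+dox replicate 3, 12w+dox replicate 4 or 12w-res replicate 1. The 12w+dox males, at 3.42 and 5.17 FPM, lay below the females of that group.

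Hcn2 was at 86.1, 68.9 and 57.7 FPM at 6w+dox, 66.7, 75.5, 62.0 and 67.2 FPM at 12w+dox, and 44.4, 44.5, 44.8, 55.7 and 44.8 FPM in 12w-res, which lay below all mice on dox. The differences of 12w-res were -0.53 ± 0.12 on the log2 scale from 12w+dox (SE, limma adjusted p = 0.00354) and -0.58 ± 0.13 from 6w+dox (adjusted p = 0.00405), below the fold minimum. Hcn3, at 7.57 to 15.2 FPM, passed the test in no comparison. Hcn3 shares 711 exon bases with Pklr on the opposite strand. Per kb, Hcn2 made up 83.3 to 92.3% of the sum of Hcn2, Hcn3 and Hcn4 in the mice on dox and 70.9 to 77.8% in 12w-res, and Hcn4 1.21 to 5.59% and 8.58 to 12.8%.

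Nalcn, the sodium leak channel, was at 55.3, 48.4 and 62.8 FPM at 6w+dox, 100, 101, 88.0 and 98.8 FPM at 12w+dox, and 98.6, 117, 97.4, 109 and 98.5 FPM in 12w-res. All mice of the later groups lay above the 6w+dox mice. The log2 fold change from 6w+dox was 0.80 ± 0.11 at 12w+dox (SE, limma adjusted p = 0.000597) and 0.90 ± 0.11 in 12w-res (adjusted p = 3.16e-05), under the fold minimum in both. Its complex partners Unc79, at a mean of 66.1, 89.6 and 82.7 FPM in the 3 groups in that order, Unc80, at 190, 176 and 186 FPM, and Fam155a, at 92.9, 98.7 and 99.5 FPM, did not pass the test in any of these comparisons.

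The partner list holds 33 symbols, of genes that bind or regulate these channels and of the pore gene Scn2a1. Some genes are listed under both an older and a newer name. Of the 33 symbols, 29 were in the long-term and 27 in the short-term table. From 6w+dox to 12w+dox 0 rose and 3 fell, with a median log2 difference of -0.08 over the 29, beside the 3.15% of all genes called higher and 4.04% called lower. The 3 encode RGK proteins, small GTPases known to hold down voltage-gated calcium currents. Gem fell by 1.15 ± 0.31, Rem1 by 1.23 ± 0.35 and Rem2 by 1.45 ± 0.13 on the log2 scale (SE, limma adjusted p = 0.0185, 0.0219 and 9.88e-05), and for Rem2 the groups did not overlap, at means of 70.8 FPM and 25.5 FPM. Between 12w+dox and 12w-res 1 of the 29 rose and 1 fell, beside 6.24% of all genes called higher and 5.04% lower. Between 6w+dox and 12w-res 1 rose and 2 fell, beside 5.81% and 5.82%. In 12w-res, Stac2, an adaptor of L-type channels, rose by 1.54 ± 0.32 against 12w+dox (adjusted p = 0.00202) and by 2.36 ± 0.35 against 6w+dox (adjusted p = 0.00018), with means of 2.31, 4.27 and 13.7 FPM at 6w+dox, 12w+dox and 12w-res. Its relative Stac fell, by 1.25 ± 0.30 and 1.51 ± 0.33 (adjusted p = 0.00535 and 0.0032), from means of 2.70 and 2.25 FPM to 0.655 FPM. Gem was also 1.56 ± 0.30 lower in 12w-res than at 6w+dox (adjusted p = 0.00128). In the short-term comparisons 0 partner genes were called.

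Other cell types and conditions moved with the long-term groups. The 8 markers of somatotrophs, lactotrophs, thyrotrophs and gonadotrophs summed to 57306 to 92654 FPM at 6w+dox, 1177 to 12622 FPM at 12w+dox and 16675 to 32341 FPM in 12w-res. The 4 pericyte and smooth muscle markers summed to 115 to 153, 107 to 254 and 427 to 528 FPM, the 4 endothelial markers to 149 to 201, 50.5 to 109 and 160 to 228 FPM, and the 5 leukocyte markers in the table to 60.0 to 82.4, 51.0 to 80.4 and 92.6 to 127 FPM. Proliferation markers, 4 in number, were at 271 to 393, 248 to 359 and 19.0 to 26.1 FPM. Melanotroph markers, all 6 in the table, summed to 111133 to 383248, 99211 to 202243 and 462706 to 584044 FPM, most of it Pomc. From 12w+dox to 12w-res Pomc and the prohormone convertase gene Pcsk2 (1955 to 3111 and 5410 to 6986 FPM) did not overlap, while the melanotroph markers Pax7, Drd2, Oacyl and Tbx19 did. Of the anterior hormone cell markers, Gh and Prl made up most of the sum, and between these groups all but Prl overlapped. The medians of Lhb (128 to 71.9 FPM), Fshb (80.6 to 20.4 FPM) and Gnrhr (15.3 to 5.75 FPM) went down from 12w+dox to 12w-res. Those of Gh, Prl, Tshb, Pou1f1 and Ghrhr went up. Neuron markers, 7 of 8 in the table, summed to 238 to 290, 226 to 264 and 214 to 256 FPM. Of these, Rbfox3 was at 89.7 to 108 FPM at 6w+dox and 42.8 to 67.7 FPM at 12w+dox, and Tubb3 at 46.4 to 111 FPM at 12w+dox and 21.5 to 36.8 FPM in 12w-res. Between 12w+dox and 12w-res the sums of 6 lists did not overlap (melanotroph, anterior hormone cell, pericyte and smooth muscle, endothelium, leukocyte and proliferation). The proliferation sum fell and the other sums named rose. The part of these lists in the changes of the 5 channel genes called there was not tested.

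Within each of the 3 long-term groups, the median spread of the channel genes was above that of all genes. Over the 31 channel genes with a mean of 1 FPM or more at 6w+dox, the median coefficient of variation was 32.0%. It was 19.8% over all 13763 genes with a mean of 1 FPM or more. At 12w+dox it was 19.2% for channel genes and 16.2% for all genes, and in 12w-res 19.6% and 13.2%. Of the short-term groups, 16w +dox also had a higher median for channel genes than the 10.4% of all genes, as did the 1-day mice (12.2% against 10.6%) and the 3-day mice (12.7% against 9.7%). The 5-day mice went the other way, with 7.8% for channel genes against 9.6%. Above 1 FPM the channel genes and all genes were not matched in level, and the part of level in these spreads was not tested. In the 6w+dox group, replicate 1 was the lowest for 21 of 36 channel genes and replicate 3 the highest for 26 of 36. No such count over all genes is given here, so it cannot be said whether this order is particular to channel genes. The same mice were at opposite ends of their group for Pomc, at 32.2% of the reads in replicate 1 and 13.6% in replicate 3. Their melanotroph markers summed to 383248 and 111133 FPM. The part of these differences in the counts was not tested.

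After dox was removed for days rather than weeks, 0 of the 34 channel genes that passed the filter on low reads were called at 1d, 3d or 5d by limma, beside 0.043%, 0.129% and 0.193% of all 13958 genes. Scn4b, the other channel gene of that table, did not pass the filter and had 3 to 15 reads per mouse. With any fold allowed, 0, 0 and 1 channel genes had an adjusted p under 0.05, against 0.1%, 0.358% and 0.509% of all genes. At an unadjusted p under 0.05 there were 3, 7 and 8 channel genes, against 13.1%, 16.6% and 13.5% of all genes, and the groups did not overlap for 2, 6 and 12, against 11.2%, 21.6% and 19.3% of all genes. DESeq2 and edgeR on recovered reads called 0 at 1d and 3d, and 1 at 5d, Hcn4. The 3 comparisons share the 16w +dox mice.

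The 1 channel gene past the adjusted threshold, Hcn4, had 2.22, 2.73 and 2.86 FPM at 16w +dox, 2.68, 4.83, 3.71 and 4.21 FPM at 1d -dox, 3.22, 3.53 and 2.53 FPM at 3d -dox, and 5.22, 5.53 and 5.35 FPM at 5d -dox. All 5d -dox mice lay above all others, and the 3d -dox mice overlapped with 16w +dox. The log2 difference from 16w +dox was 0.92 ± 0.17 at 5d (SE, limma adjusted p = 0.0349), 0.47 ± 0.16 at 1d (adjusted p = 0.238) and 0.21 ± 0.17 at 3d (adjusted p = 0.583). Leaving out each of the 13 mice in turn kept the 5d value at 0.83 to 0.98, with an adjusted p of 0.0174 to 0.119 that stayed under 0.05 in 6 of 13. The 1d and 5d mice were female and the 16w and 3d mice male. Marker sums also differed without overlap between 5d -dox and 16w +dox, at 9.76 to 13.5 and 20.7 to 39.2 FPM for endothelium, 20.5 to 33.3 and 44.9 to 80.0 FPM for pericytes and smooth muscle, and 24.1 to 100 and 193 to 206 FPM for anterior hormone cells. Leukocyte markers were at 6.89 to 9.66 and 10.8 to 12.0 FPM, and melanotroph markers at 41033 to 58538 and 35678 to 38844 FPM. Their part in the values of Hcn4 was not tested. Hcn2, in the same mice, was at 16.7 to 17.7 FPM at 16w +dox and 17.8 to 19.6 FPM at 5d -dox.

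Cacng6 had a like order of groups at a lower level of evidence, with 3.07, 2.06 and 2.42 FPM at 16w +dox, 5.44, 3.79, 3.79 and 4.0 FPM at 1d -dox, 2.89, 3.02 and 2.02 FPM at 3d -dox, and 4.18, 3.95 and 4.30 FPM at 5d -dox. The mice at 1d and 5d, all female, did not overlap with 16w +dox, and the 3d mice, all male, did. The log2 differences were 0.66 ± 0.16 at 1d, 0.06 ± 0.17 at 3d and 0.63 ± 0.17 at 5d (limma adjusted p = 0.123, 0.907 and 0.119). In the long-term experiment Cacng6 had no called change.

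Scn2b, which rose over weeks, was not past the test within days. It was at 5.56 to 8.70 FPM at 16w +dox and at 10.1, 9.58 and 13 FPM at 5d -dox, without overlap (0.57 ± 0.20 on the log2 scale, limma adjusted p = 0.245). Scn3b was at 3.77 to 4.06 FPM at 16w +dox and at 4.28 to 5.04 FPM in all mice off dox. Cacna2d2 had the smallest adjusted p at 3d (0.071), with 6.24 to 7.50 FPM at 16w +dox and 9.67 to 10.3 FPM at 3d -dox. Scn4a was at 0.434 to 0.695 FPM at 16w +dox and 0.785, 1.01 and 1.63 FPM at 5d -dox (0.61 ± 0.23 on the log2 scale, adjusted p = 0.279).

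**Figure D4:**
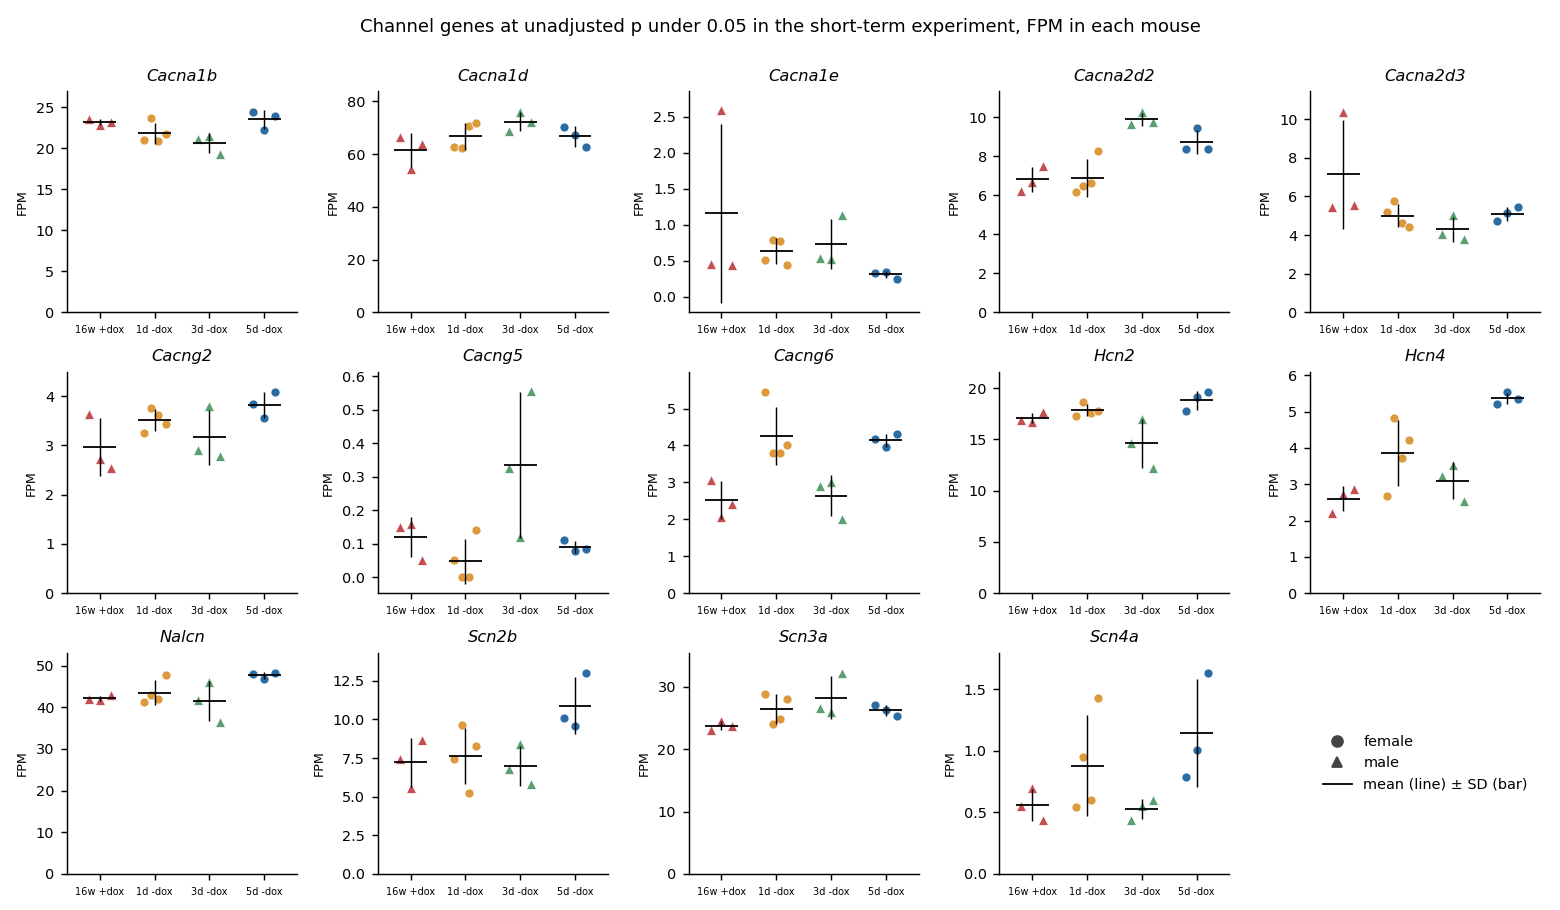
FPM (y axis, linear, 1 scale per gene) of the 14 channel genes with an unadjusted p under 0.05 in at least 1 short-term comparison, in each of the 13 mice, with females as circles and males as triangles, lines at the mean and bars of 1 SD. Hcn4 at 5d -dox lies above all other mice, Cacng6 is higher in both groups of females, and 1 mouse at 16w +dox stands apart for Cacna1e and Cacna2d3.

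The 16w +dox mouse of replicate 2 stood apart for several channel genes, a pattern picked after its values were seen. It had 2.59 FPM of Cacna1e where the other 2 had 0.449 and 0.434 FPM, 1.52 FPM of Scn11a against 0.025 and 0.153 FPM, 6.09 FPM of Cacna1g against 1.55 and 0.664 FPM, and 10.4 FPM of Cacna2d3 against 5.47 and 5.56 FPM. It was low for Cacng4, at 1.20 FPM against 3.99 and 3.75 FPM. Neuron markers summed to 108 FPM in this mouse and to 62.5 and 63.3 FPM in the others of its group. Endothelial markers summed to 39.2 FPM against 20.7 and 22.9 FPM, pericyte and smooth muscle markers to 80.0 FPM against 50.5 and 44.9 FPM, and proliferation markers to 149 FPM against 228 and 186 FPM. Their part in these values was not tested. Without it, the log2 difference of Cacna1e at 5d went from -0.79 to -0.22 and that of Cacna2d3 at 3d from -0.62 to -0.33 (unadjusted p = 0.0344), while Hcn4 at 5d was 0.96 (adjusted p = 0.0662).

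For the other channel genes of the short-term table, the range over the 13 mice follows. Of the calcium channel pore genes, Cacna1a was at 52.6 to 84.9 FPM, Cacna1b at 19.3 to 24.5, Cacna1c at 10.6 to 19.7, Cacna1d at 54.3 to 76.1, Cacna1h at 0.153 to 2.06 and Cacna1i at 13.3 to 28.1 FPM. Of the auxiliary ones, Cacna2d1 was at 122 to 151 FPM, Cacnb1 at 6.25 to 9.28, Cacnb2 at 17.3 to 22.5, Cacnb3 at 31.7 to 48.3, Cacnb4 at 1.07 to 2.04, Cacng2 at 2.55 to 4.08, Cacng5 at 0 to 0.556, Cacng7 at 5.13 to 8.67 and Cacng8 at 0.281 to 1.12 FPM. Of the sodium channel pore genes, Scn1a was at 0.408 to 1.59 FPM, Scn3a at 23.1 to 32.2, Scn7a at 2.33 to 6.34, Scn8a at 9.62 to 14.9 and Scn9a at 2.19 to 5.43 FPM. Hcn3 was at 1.37 to 2.96 FPM and Nalcn at 36.5 to 48.2 FPM. None of these genes was called at 1d, 3d or 5d.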

How the data were processed

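RNA-seq libraries of 25 mice were analysed, 12 poly(A)-selected in the long-term and 13 rRNA-depleted in the short-term experiment. Per the labels and the methods of the study, the authors aligned paired-end reads with STAR to mm10 and scaled gene counts with DESeq2. The counting tool and the use of strand are not given in the sources used here. The values the authors deposited are a scaled signal per gene (FPM, counts divided by size factors), not raw counts. All values gave whole reads (100%, within 0.1 read), and depth was taken from these. Of the short-term lines, 4 named no gene and held 68.8 to 75.0% of the reads of a library and entered the authors' scaling, and 2 long-term lines had no name. Both kinds were left out, and 0 columns of mice were left unused.

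Log2(FPM + 0.5) was tested with limma 3.58.1 (R 4.3.3) with a trended prior, on all genes that reached 10 reads in over 50% of the mice in some group, with all groups of an experiment in 1 fit and Benjamini-Hochberg adjustment over all genes tested. Calls needed an adjusted p below 0.05 together with a log2 change beyond 1 either way. Each library was 1 mouse, so p-values measure the spread between mice. Recovered reads were tested with edgeR 4.0.16 and DESeq2 1.42.0 as alternatives, beside other pseudocounts, scalings, filters, sex as a covariate, single sexes, a replicate block and leaving out each mouse. Scaling by totals without Pomc was added after the data were seen. The test was checked on simulated reads with known changes larger than the fold minimum, in genes above a set mean level. That check does not cover calls near the fold minimum or in genes at low levels. All 38 genes matched RefSeq (GRCm38.p6) by symbol and had a GENCODE vM21 transcript length. Tables and plots were made with Python 3.11.15, pandas 2.3.3, NumPy 2.4.6 and matplotlib 3.10.9.

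Of the 41 channel genes the rule found, 3 are not reported here and enter no count of channel genes. The channel genes, partner genes and markers were chosen with earlier results of these data known. Each of the other channel genes is named with its level. Fold changes with their errors are given in the long-term comparisons for those called in at least 1 of them, and levels for the 6 highest per kb in each experiment. Same-numbered mice did not deviate together (correlations of -0.165 to 0.237 over 10 pairs in the long-term and -0.208 to 0.168 over 18 pairs in the short-term experiment), so the numbers were not taken to pair the mice. No 2 libraries of a group agreed within sampling noise, with chi-square per degree of freedom of 11.4 to 222 in 19 long-term and 3.93 to 37 in 15 short-term pairs.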

Additional observations from a re-analysis of the deposited data

Results flagged for a closer look

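Each channel gene was checked in each group of 4 or 5 mice, which gave 107 sets of values. In 9 of the 107 sets, 1 mouse lay beyond Dixon's 95% limit, which flags about 1 in 20 sets by chance. The sets come from the same few groups of mice and are not independent, so the 2 rates cannot be compared as a test. Among the long-term mice on dox, 12w+dox replicate 3 was low for Cacna1a (75.0 FPM, the others 120 to 124) and for Nalcn (88.0 FPM, the others 98.8 to 101). In the same group, replicate 2 was high for Scn1a (1.49 FPM, the others 1.03 to 1.11). In 12w-res, replicate 1 was low for Cacna1d (49.8 FPM, the others 71.5 to 78.6) and Scn3b (10.4 FPM, the others 17.3 to 19.6), and high for Hcn4 (14.8 FPM, the others 11 to 11.9). Replicate 4 of 12w-res was high for Hcn2 (55.7 FPM, the others 44.4 to 44.8) and replicate 5 for Cacna1g (7.46 FPM, the others 2.91 to 4.0). At 1d -dox, replicate 1 was high for Cacng6 (5.44 FPM, the others 3.79 to 4.0).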

How the results depend on the processing

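Of the 17 called values of single genes, 0 changed sign under any alternative, 9 kept the call without any 1 mouse, and 7 kept it under every alternative that could be fitted: Cacna1a and Scn4b from 6w+dox to 12w+dox, Cacng4 from 12w+dox to 12w-res, Cacng5 in both comparisons with 6w+dox, and Hcn4 and Scn2b from 6w+dox to 12w-res. The number of channel genes called was 6, 5 and 6 in the long-term comparisons (12w+dox with 6w+dox, 12w-res with 12w+dox, 12w-res with 6w+dox) and 0 in each short-term comparison. With no minimum fold it was 10, 12 and 16, and 1 at 5d. In the second comparison, scaling by totals gave 11, edgeR 8, and a pseudocount of 1 and females alone 3 each. At 5d, DESeq2, edgeR and a pseudocount of 0.1 each gave 1, Hcn4. Leaving out each mouse gave 5 to 8, 3 to 6 and 4 to 7 in the long-term comparisons (the 3 in the second without 12w+dox replicate 3) and 0 in the short-term ones. Scaling by totals moved the median log2 difference of all genes to 0.29, -0.61 and -0.33 in the long-term comparisons, and totals without Pomc to 0.22, -0.18 and 0.03.

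Single genes were followed through the alternatives only if called in some comparison or at an adjusted p under 0.05 in the comparison at hand. Among these, 4 log2 differences that were not called changed sign. Differences of the other channel genes, many of them near 0, were not followed. From 6w+dox to 12w+dox, leaving out each mouse gave -0.60 to 0.041 for Cacna1g (the positive value without 6w+dox replicate 3) and -0.053 to 0.89 for Scn4a (the negative value without 6w+dox replicate 1). From 12w+dox to 12w-res, it gave -0.035 to 0.56 for Scn7a (the negative value without 12w+dox replicate 2), totals gave -0.34 for Scn7a, and males alone gave 0.29 for Cacng5. The cause was not tested. With the replicate number as a block, 6, 4 and 6 channel genes were called in the long-term comparisons and 0, 0 and 0 in the short-term ones. Of the same-numbered pairs, 1 of 10 and 3 of 18 had a correlation over 0.1. Genes near 1 FPM or below, such as Scn4b, Cacna1s, Scn1a and Scn11a, rest on few reads a mouse, and their log2 values move most with the pseudocount.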

Other observations

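In the long-term experiment, 12w+dox and 12w-res held mice of both sexes. A test of whether the difference between these groups was the same in females and males found 0 of 36 channel genes at a limma adjusted p under 0.05 (smallest 0.999) and 2 at an unadjusted p under 0.05. These were Cacng2, with a log2 interaction of -1.05, and Hcn4, with 0.96 (adjusted p = 0.999 for both).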
